A study of Salmo trutta with 24 samples.

Results

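The livers of 3 adult male brown trout (Salmo trutta) exposed for 4 days to 225.9 µg/L linuron (HL) were compared with those of 6 adult males exposed for 4 days to a lower dose of the same chemical, 3 at 15.3 µg/L (ML) and 3 at 1.7 µg/L (LL). These 9 fish were chosen by their labelled dose from the 24 samples of the series, and each fish gave 1 RNA-seq library. No unexposed fish entered any comparison, so that HL was set against lower linuron doses and not against a control. The question was which liver transcripts separated the top dose from the doses below it. The 4 days are those of the sample characteristics, while the treatment text of the labels gives 14 days. How the linuron tanks were arranged is not given in the sources used here. The p-values set the dose difference against the spread between single fish, which may have shared water. In the pooled comparison ML and LL fish were fitted as 1 group, so that spread also holds any difference between these 2 doses. If the fish of a dose shared a single tank, dose and tank cannot be told apart.

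Linuron is a phenylurea herbicide that is also known in vertebrates as an androgen receptor antagonist. Chemicals that bind the aryl hydrocarbon receptor (AhR) induce cyp1a, a monooxygenase that oxidises planar aromatic compounds and is the usual marker of AhR activation in fish liver. Conjugating enzymes then attach glutathione, glucuronic acid or sulfate to the products. Hepatocytes answer misfolded protein in the cytosol with heat shock proteins and misfolded protein in the endoplasmic reticulum (ER) with a separate set of chaperones. They also make cholesterol, through a chain of enzymes controlled by the transcription factor srebf2.

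A total of 51995 assembled transcripts were listed in the tables of all 3 doses, of 57544 listed for HL, and they held between 99.2% and 99.6% of the counts of each fish. The total counts per fish in the deposited tables were 6668055 to 10007162 in HL fish, 5748309 to 7472114 in ML fish and 7262819 to 10736246 in LL fish. Of the 51995, 51980 had at least 1 count in at least 3 of the 9 fish and were tested. An annotation was given for 30816 transcripts, and counts of transcripts with the same annotation were also summed, which gave 10475 annotations to test. Levels are CPM, in which each count is scaled to a common library size with TMM factors. They are not divided by transcript length, so that they compare fish and not genes. Transcripts and annotation sums were scaled separately, the sums to annotated counts only. A transcript and a sum are therefore not on 1 scale. Fold changes are on the log2 scale with HL on top. Where a standard error (SE) is given, it follows the fold change.

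ML2 and ML3 stood apart from the other 7 fish. The root mean square log2 difference over the 500 most different transcripts was 4.26 to 5.27 between either of them and another fish, 3.97 between them, and 3.17 to 3.97 among the rest. The summed CPM of 60 acute phase, complement and coagulation annotations was 381859 and 353675 in ML2 and ML3, against 138777 to 186680 in the other 7 fish. Hepatocyte markers (12 annotations, all detected at 1 CPM in every fish) summed to 117887 to 168914 CPM in HL fish, against 133759 to 207203 CPM in the 6 others. Red blood cell markers (8 annotations) summed to 4536, 1178 and 1436 CPM in HL1, HL2 and HL3, against 223 to 1694 CPM in the 6 others, so HL1 was the highest and the groups overlapped. Of these 8, 7 had fitted changes above 0 and 3 were higher at an unadjusted p under 0.05, against 2.41% of all annotations. Their median log2 fold change was 1.17 (1.02 without ML2 and ML3), above the median of every pathway list. None passed by edgeR's quasi-likelihood test, its exact test or DESeq2. Leukocyte markers (25 annotations) summed to 524 to 980 CPM, against 519 to 1052 CPM. The part of these markers in the results below was not tested. In whole liver, fewer cells of a type and less RNA per cell cannot be told apart.

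HL differed from the pooled lower doses in 10 of the 51980 transcripts (0.0192%) (edgeR's quasi-likelihood test, p-values adjusted by Benjamini-Hochberg), all 10 of them higher in HL. They came from the genes of clusterin, a pair of HSP70 family proteins, cyp1a and sc:d173, plus 2 transcripts without annotation. No transcript passed as lower, although 1391 (2.68%) were lower at an unadjusted p under 0.05. edgeR's exact test called 50 higher (0.0962%) and 5 lower (0.00962%), and DESeq2 called 73 higher (0.14%) and 22 lower (0.0423%). Over annotations, 6 of 10475 passed (0.0573%), all higher: clusterin (clu), heat shock cognate 70-kd protein, like (hsc70-like), a second annotation similar to heat shock cognate 70 (hsc70-similar), sc:d173, ptplad1 and si:ch211-93g23.2. Over annotations the exact test called 32 higher (0.305%) and 3 lower (0.0286%), and DESeq2 34 higher (0.325%) and 9 lower (0.0859%). At an unadjusted p under 0.05, 252 annotations were higher (2.41%) and 327 lower (3.12%). A fit of the 3 dose groups, with HL set against the mean of LL and ML, called 15 transcripts and 7 annotations, all higher. They held all 10 and all 6 of the main fit. The count of annotations was 3 without HL1, 3 without HL3 and 2 without ML1. The count of transcripts was 4 without HL1, 4 without HL3, 4 without LL2, 6 without LL1 and 17 without ML2. With ML2 and ML3 both left out, a choice made after seeing the data, 39 transcripts and 17 annotations passed, among them all 10 and all 6 above.

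Clusterin, a secreted chaperone that binds misfolded proteins and lipids, rose in HL. Its 4 transcripts summed to 257, 171 and 237 CPM in HL1, HL2 and HL3, against 14.8, 11.8 and 15.5 CPM in ML fish and 30.2, 17.2 and 24.9 CPM in LL fish. The lowest HL fish was above the highest of the 6 others, and ML fish lay below all LL fish. The log2 fold change was 3.53 (SE 0.30, adjusted p = 0.000646, edgeR), and it passed with any one of the 9 fish left out (adjusted p between 0.000795 and 0.00576). It also passed against each lower dose, with 3.98 over ML (adjusted p = 0.000738) and 3.20 over LL (adjusted p = 0.00452). These transcripts fell in 2 assembly components, and 3 of them passed on their own, at log2 fold changes of 3.42 to 3.91.

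**Figure D1:**
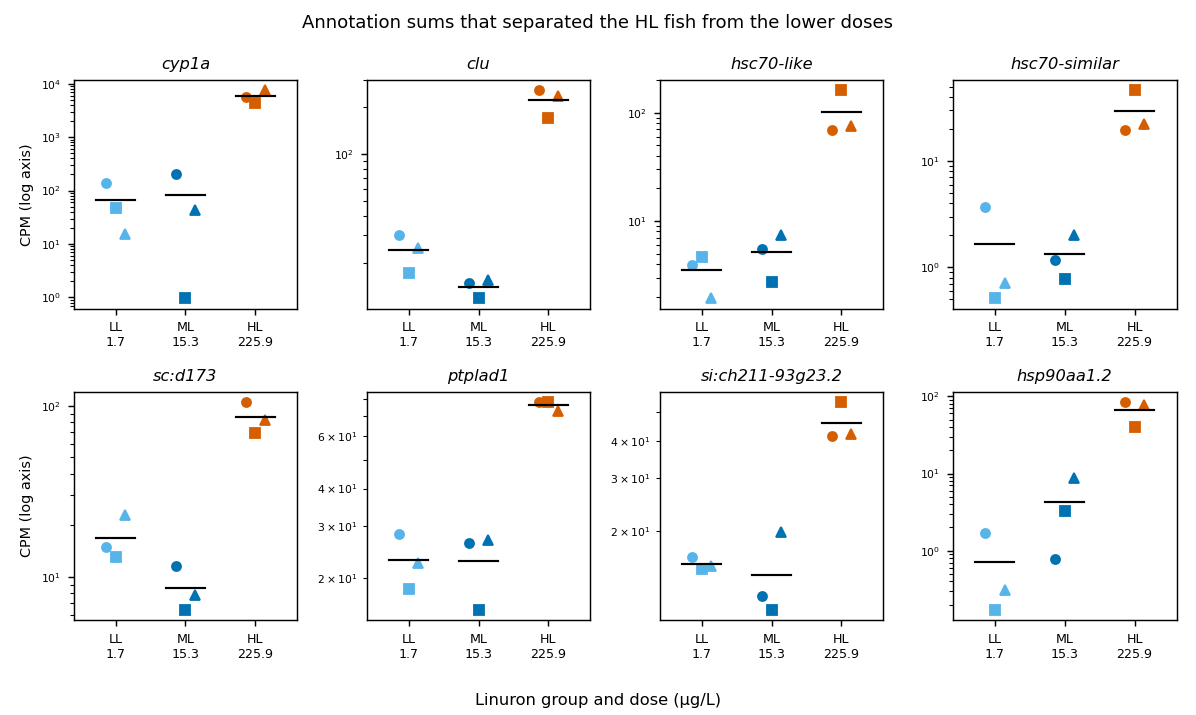
CPM of 8 annotations in each fish (vertical log axes) against linuron dose in µg/L, with circles, squares and triangles for replicates 1, 2 and 3 and a line at each group mean. The panels were picked as annotations in which the 3 HL fish sit above all 6 fish of the lower doses, so no panel shows an overlap. That pattern was seen in 199 of 10475 annotations (1.90%). In its panel, cyp1a spans 4399 to 7545 CPM in HL and 0.968 to 202 CPM in the others.

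The HSP70 annotation hsc70-like, a chaperone that refolds proteins in the cytosol, had 69.4, 161 and 75.1 CPM in HL fish, against 5.46, 2.71 and 7.35 CPM in ML fish and 3.93, 4.61 and 1.93 CPM in LL fish. HL2 was the highest fish and the groups did not overlap. The log2 fold change was 4.58 (SE 0.40, adjusted p = 0.000646, edgeR), and it passed with each of the 9 fish left out (0.00175 to 0.00519). It also passed against ML (4.31, adjusted p = 0.0104) and against LL (4.88, adjusted p = 0.00548). The annotation hsc70-similar showed the same order of HL fish at a lower level, with 19.7, 46.4 and 22.1 CPM, against 1.17, 0.775 and 2.03 CPM in ML fish and 3.71, 0.512 and 0.712 CPM in LL fish. Its log2 fold change was 4.26 (SE 0.52, adjusted p = 0.0135), and it passed in 7 of the 9 fits with 1 fish left out. The 2 annotations are close relatives, and reads were placed at a single position each, so a share of their counts may be exchanged between them.

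The constitutive HSP70 annotation hspa8, which every cell expresses, did not separate the doses. It had 8446, 8793 and 8127 CPM in HL fish, against 8752, 1224 and 4837 CPM in ML fish and 10550, 5379 and 5642 CPM in LL fish. ML2 was the lowest fish.

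Of the 40 heat shock and chaperone annotations, 31 had fitted changes above 0 and 9 below 0, and hsc70-like was the 1 that passed. The list was matched by name and did not include hsc70-similar. The inducible HSP90 annotation hsp90aa1.2 had 84.5, 40.3 and 77.1 CPM in HL fish, against 0.780, 3.29 and 8.87 CPM in ML fish and 1.69, 0.171 and 0.305 CPM in LL fish. The groups did not overlap, and ML3 was the highest of the lower fish. The log2 fold change was 4.86 (SE 0.79, adjusted p = 0.0707, edgeR). It passed against LL (6.44, adjusted p = 0.0382), not against ML (4.00, adjusted p = 0.085). Against the pooled doses it passed by the exact test (adjusted p = 5.3e-05) and DESeq2 (2.48e-05). With ML2 and ML3 left out it also passed by edgeR's main test (0.000649). For dnajb1b, an HSP70 co-chaperone, the values were 11.1, 11.9 and 13.4 CPM in HL fish, against 0.775 to 3.66 CPM in the 6 others (log2 fold change 2.22, SE 0.36, adjusted p = 0.0707). It passed by the exact test (adjusted p = 4.01e-06), by DESeq2 (8.98e-06) and, without ML2 and ML3, by edgeR's main test (0.0128). For fkbp4, an HSP90 co-chaperone of steroid receptors, HL fish had 118 to 161 CPM, against 15.1 to 63.9 CPM in the others (1.60, SE 0.36, adjusted p = 0.331). It too passed by the exact test (adjusted p = 0.0274), by DESeq2 (0.0289) and, without ML2 and ML3, by edgeR's main test (0.0439).

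The co-chaperone fkbp5, also of steroid receptors, had a fitted change on the other side of 0, with 61.3, 123 and 35.3 CPM in HL fish, against 91.6, 1305 and 773 CPM in ML fish and 59.8, 28.7 and 88.0 CPM in LL fish. ML2 and ML3 were the high fish, and the log2 fold change was -2.42 (SE 1.19, adjusted p = 0.855) with them and 0.13 without them. Heat shock protein 9, a mitochondrial HSP70, had 73.1 to 92.2 CPM in HL fish, against 52.6 to 247.5 CPM in the others, at a log2 fold change of -0.69 (adjusted p = 0.855).

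In the whole list, 1 of 40 passed as higher and none as lower, against 0.0573% of all annotations that passed. At an unadjusted p under 0.05, 15 were higher and 0 lower, against 2.41% and 3.12% of all annotations. The exact test called 6 higher and DESeq2 7, against 0.305% and 0.325% of all annotations. In 10 of the 40, all 3 HL fish lay above the 6 others, a pattern of 1.90% of all annotations, and in 0 below. The median log2 fold change of the list was 0.38, against -0.02 over all annotations. All 8 subunits of the TCP1 chaperonin, which folds actin and tubulin, had fitted changes above 0, with a median of 0.78, and in 4 of them HL fish did not overlap the others. The subunit cct8 had 75.9 to 93.7 CPM in HL fish, against 32.5 to 48.4 CPM in the 6 others (log2 fold change 1.08, SE 0.20, adjusted p = 0.117). Both the exact test (adjusted p = 0.0206) and DESeq2 (7.24e-05) called cct8. The tubulin folding cofactor tbcb, which is not in the list, had 96.4, 93.9 and 102 CPM in HL fish, against 32.1 to 54.5 CPM (1.24, SE 0.22, adjusted p = 0.096). It passed by the exact test (adjusted p = 0.00583), by DESeq2 (0.000101) and, without ML2 and ML3, by edgeR's main test (0.0128).

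ER stress genes showed no call. Of 35 annotations of the unfolded protein response, 0 passed in either direction by edgeR's quasi-likelihood test, its exact test or DESeq2. At an unadjusted p under 0.05, 5 were lower and 0 higher, against 3.12% and 2.41% of all annotations. The median log2 fold change was -0.49, and 32 of the 35 had fitted changes below 0. The sensor annotation endoplasmic reticulum to nucleus signaling 2 (1.06) and ddit3 (0.43), a transcription factor of the stress response, were among the 3 above 0. The ER chaperone hspa5 had 138, 149 and 178 CPM in HL fish, against 163, 845 and 290 CPM in ML fish and 145, 237 and 783 CPM in LL fish. ML2 and LL3 were the high fish, and the same 2 fish were the highest of the 9 for manf (339 and 98.5 CPM), a secreted ER stress protein, and for hyou1 (345 and 238 CPM), an ER chaperone.

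**Figure D2:**
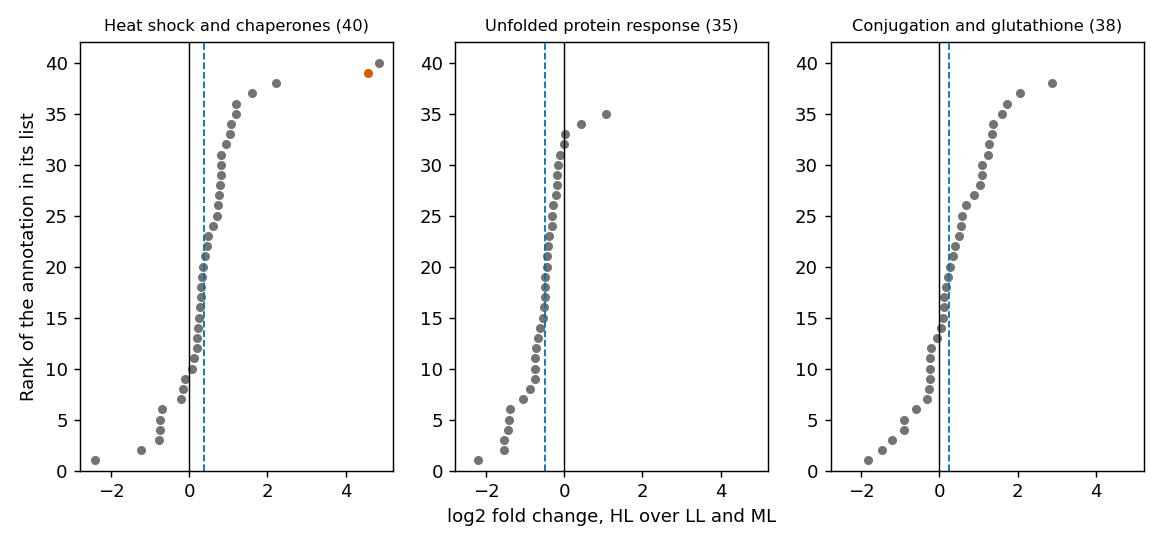
Log2 fold change of HL over LL and ML (horizontal axis) of every member of 3 gene lists, ranked within its list (vertical axis), with the number of members in parentheses; orange marks an adjusted p under 0.05, grey a p above it, and the dashed line the list's median. Fitted changes run between -2.42 and 4.86 for the heat shock list, -2.21 and 1.06 for the unfolded protein response and -1.83 and 2.88 for conjugation, with 9 of 40, 32 of 35 and 13 of 38 members below 0.

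Of the annotations named, cyp1a had the largest pooled fold difference. Its 6 transcripts, all of 1 assembly component, summed to 5719, 4399 and 7545 CPM in HL1, HL2 and HL3, against 202, 0.968 and 43.1 CPM in ML fish and 136, 47.1 and 15.3 CPM in LL fish. The lowest HL fish lay above the highest of the 6 others, and the 6 others spread widely, with ML2 the lowest. The mean was 5888 ± 1580 CPM in HL (SD, n = 3) and 74.0 ± 78.2 CPM at the lower doses (SD, n = 6). The summed annotation had a log2 fold change of 6.31 (SE 1.04) and did not pass (adjusted p = 0.0713, edgeR). It passed by the exact test (adjusted p = 1.27e-06) and DESeq2 (2.27e-05), and, with ML2 and ML3 left out, by edgeR's main test (0.0124). On their own, 2 of the 6 transcripts passed, at log2 fold changes of 6.45 and 6.21 (adjusted p = 0.0294 each), each in 2 of the 9 fits with 1 fish left out. Of the same component, 1 transcript without annotation passed at 7.18 (SE 0.86, adjusted p = 0.0159). It had 383, 199 and 658 CPM in HL fish, against 6.58, 0 and 1.62 CPM in ML fish and 4.82, 3.37 and 0.514 CPM in LL fish. Transcripts of 1 component can share sequence and each read was placed once, so those of this component are not taken as independent. Their sequences were not compared.

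The choice of transcripts listed in all 3 tables left out 5549 that were listed for HL but absent from 1 or both lower doses. It also left out 5024 listed for LL or ML and not for HL. None of these could be called, higher or lower. Of the 5549, 2231 were listed for HL alone, so the tables of the lower doses held no counts for them. One more cyp1a transcript was among them, with 399, 285 and 531 CPM in HL1, HL2 and HL3, as was a second hsp90aa1.2 transcript with 33.4, 27.2 and 29.1 CPM. These values were scaled to the total counts of each fish in its table without TMM factors, so they are not on the scale of the sums above. The sums do not include these transcripts.

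The receptors and partners of the AhR list gave no call. Of its 9 annotations, 0 passed by edgeR's quasi-likelihood test. At an unadjusted p under 0.05, 1 was higher, against 2.41% of all annotations. The exact test and DESeq2 called 1 higher each, against 0.305% and 0.325% of all annotations. That annotation was cyp1a in every case. The receptor ahr2 had 47.6, 46.2 and 51.04 CPM in HL fish, against 39.2, 14.3 and 16.7 CPM in ML fish and 49.3, 41.8 and 40.2 CPM in LL fish. HL fish overlapped LL fish, and ML2 and ML3 were the low ones. The receptor ahr1a was at 1.30 to 6.96 CPM in HL fish, against 0 to 4.10 CPM, and ahr1b at 2.28 to 5.71 CPM, against 0 to 2.56 CPM. Beside cyp1a the list held 2 other targets of the receptor, neither called by any of the 3 tests. TCDD-inducible poly(ADP-ribose) polymerase had 6.07 to 8.85 CPM in HL fish, against 4.61 to 13.9 CPM (log2 fold change -0.25, adjusted p = 0.934, edgeR). NAD(P)H dehydrogenase, quinone 1 had 0 to 2.12 CPM, against 0 to 3.87 CPM (0.32, adjusted p = 0.98). The groups overlapped for both.

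Glutathione supply and conjugation gave no call, with fitted changes above 0 in 25 annotations and below 0 in 13. Of the 38, 0 passed by edgeR's quasi-likelihood test. At an unadjusted p under 0.05, 11 were higher and 4 lower, against 2.41% and 3.12% of all annotations. The exact test and DESeq2 each called 6 higher, against 0.305% and 0.325% of all annotations, and 0 lower. Both called the same 6, described below: gclc, gsr, gsto1, gsta-like, mgst3 and sult6b1. Of these, only sult6b1 also passed without ML2 and ML3 by edgeR's main test (adjusted p = 0.0439). All 3 HL fish were above the 6 others in 10, against 1.90% of all annotations, and below in 2, against 1.44%. The median log2 fold change was 0.24 for the whole list, 0.69 for the 19 annotations of glutathione transferases and supply, and 0.13 for the 19 glucuronosyl- and sulfotransferases, of which 11 were fitted above 0 and 8 below. Without ML2 and ML3 the last median was -0.14.

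The catalytic subunit of glutamate-cysteine ligase, gclc, the rate-limiting enzyme of glutathione synthesis, had 98.3, 102 and 66.9 CPM in HL fish, against 31.4, 31.2 and 47.9 CPM in ML fish and 31.6, 28.3 and 49.9 CPM in LL fish (log2 fold change 1.28, SE 0.25, adjusted p = 0.173). Glutathione reductase, gsr, which regenerates reduced glutathione, had 123, 179 and 65.5 CPM in HL fish, against 24.6 to 61.5 CPM in the others (1.74, SE 0.36, adjusted p = 0.205). HL3 was the lowest HL fish for both, and for neither did the groups overlap. The glutathione transferase gsto1 had 341 to 515 CPM in HL fish, against 98.1 to 266 CPM (1.61, SE 0.33, adjusted p = 0.205).

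The transferase gsta-like had 521 to 794 CPM in HL fish, against 182 to 349 CPM (1.25, SE 0.26, adjusted p = 0.205). The microsomal transferase mgst3 had 161 to 209 CPM, against 35.0 to 101 CPM (1.38, SE 0.31, adjusted p = 0.306), and 1 of its 2 transcripts passed against ML (log2 fold change 4.39, adjusted p = 0.0108). The glutathione peroxidase gpx1b, which reduces hydrogen peroxide, had 330, 221 and 263 CPM in HL fish, against 7.41, 167 and 83.1 CPM in ML fish and 58.2, 19.1 and 52.4 CPM in LL fish (2.07, SE 0.67, adjusted p = 0.855). The sulfotransferase sult6b1 had 149, 108 and 106 CPM in HL fish, against 20.3, 5.03 and 36.5 CPM in ML fish and 18.2, 2.73 and 16.6 CPM in LL fish (2.88, SE 0.57, adjusted p = 0.173). On the other side of 0, cytosolic sulfotransferase 2 of family 2 had 31.3 to 35.3 CPM in HL fish, against 38.7 to 107 CPM in the others (-0.91, adjusted p = 0.855). Cytosolic sulfotransferase 1 of family 3 had 38.9 to 71.3 CPM, against 74.5 to 93.4 CPM (-0.61, adjusted p = 0.855), and in both all HL fish were below the others. Glutathione peroxidase 4a, which reduces lipid peroxides, had 15.5 to 19.4 CPM, against 16.4 to 50.3 CPM (-0.91, adjusted p = 0.855). Polypeptide G1 of UDP glucuronosyltransferase family 5 had 0.976 to 10.6 CPM, against 3.07 to 33.7 CPM (-1.83, adjusted p = 0.855). These 4 were the members lower at an unadjusted p under 0.05.

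Of the 25 other cytochrome P450 annotations, 0 passed by edgeR's quasi-likelihood test. At an unadjusted p under 0.05, 2 were higher, against 2.41% of all annotations. The exact test and DESeq2 called 1 higher each, against 0.305% and 0.325% of all annotations. That one was cyp2j20, with 318 to 553 CPM in HL fish, against 60.2 to 207 CPM (1.89, SE 0.37, adjusted p = 0.169).

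**Figure D3:**
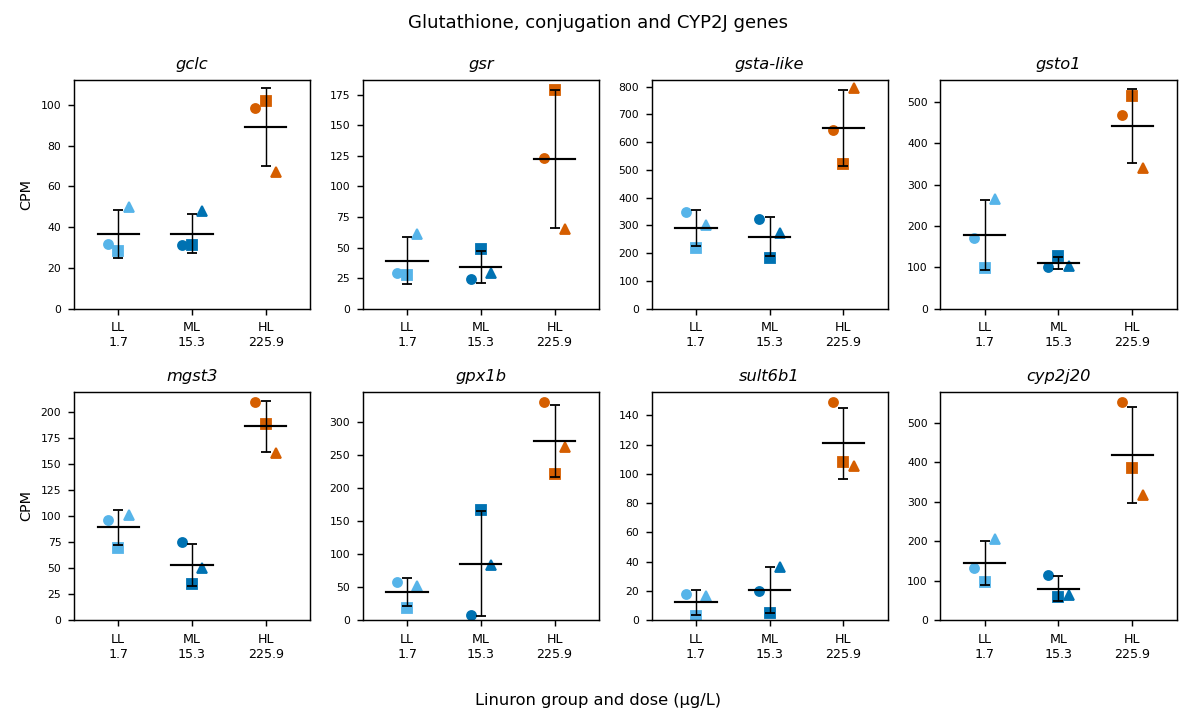
CPM of 8 genes of glutathione supply, conjugation and the CYP2J family in each fish against linuron dose in µg/L, with markers for replicates 1 to 3, lines at the group means and bars of ± 1 SD (n = 3). The panels are 7 of the 10 conjugation annotations in which all HL fish lay above the others, and cyp2j20, so no panel shows an overlap; gsta-like runs from 521 to 794 CPM in HL and from 182 to 349 CPM at the lower doses.

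Cholesterol synthesis enzymes lay lower in HL, also without a call. Of 21 annotations, 0 passed by edgeR's quasi-likelihood test and 0 by its exact test. At an unadjusted p under 0.05, 13 were lower and 0 higher, against 3.12% and 2.41% of all annotations. DESeq2 called 3 lower (hmgcs1, fdft1 and lss), against 0.0859% of all annotations. The fitted change was below 0 in 20 of the 21, with a median of -1.09, against -0.02 over all annotations. In 7, all 3 HL fish lay below the 6 others, against 1.44% of all annotations. By step, the median was -1.02 over 8 annotations of the mevalonate steps, -1.84 over 4 of the isoprenoid and squalene steps and -1.07 over 9 of the later sterol steps.

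The farnesyltransferase fdft1, which makes squalene, had 11.7, 28.6 and 13.03 CPM in HL fish, against 145, 86.7 and 49.4 CPM in ML fish and 47.5, 36.7 and 49.7 CPM in LL fish (log2 fold change -1.96, SE 0.50, adjusted p = 0.536). Lanosterol synthase, lss, which closes the sterol rings, had 23.7, 34.8 and 20.9 CPM in HL fish, against 182, 138 and 77.8 CPM in ML fish and 41.9, 62.1 and 61.0 CPM in LL fish (-1.82, SE 0.47, adjusted p = 0.585). The synthase hmgcs1, an early enzyme of the pathway, had 7.91, 34.0 and 17.5 CPM in HL fish, against 298, 91.6 and 46.4 CPM in ML fish and 46.8, 52.9 and 78.2 CPM in LL fish (-2.37, SE 0.72, adjusted p = 0.855). HL2 was the highest HL fish for all 3, and ML1 was the highest of the 9.

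ML1 had the highest sum of the list. The 21 annotations summed to 592, 1099 and 661 CPM in HL fish, against 4255, 1710 and 1212 CPM in ML fish and 1204, 1349 and 1446 CPM in LL fish, so that every HL sum was below every other sum. The median fold change of the list was -1.48 over ML and -0.68 over LL. The reductase hmgcra, the rate-limiting enzyme, had 32.5, 65.9 and 49.3 CPM in HL fish, against 225, 142 and 105.4 CPM in ML fish and 61.0, 65.0 and 82.7 CPM in LL fish, so HL2 overlapped LL.

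**Figure D4:**
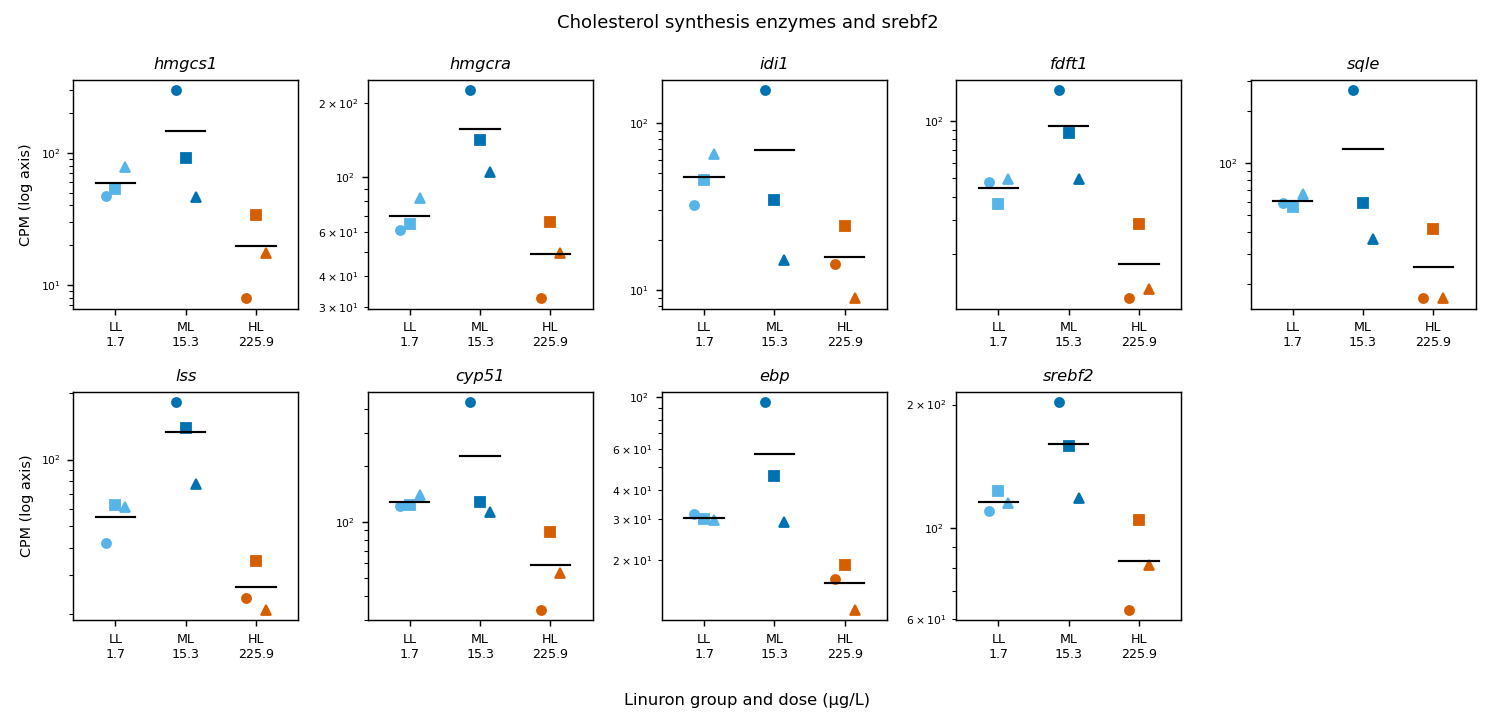
CPM of 8 cholesterol synthesis enzymes and of srebf2 in each fish (vertical log axes) against linuron dose in µg/L, with markers for replicates 1 to 3 and lines at the group means. All 3 HL fish lie below the 6 others for hmgcs1, fdft1, lss, cyp51, ebp and srebf2, and ML1 (circle) is the highest fish in each; hmgcs1 was 7.91 to 34.0 CPM in HL and 46.4 to 298 CPM at the lower doses.

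Of 23 annotations of sterol regulation and transport, 0 passed by edgeR's quasi-likelihood test, its exact test or DESeq2. At an unadjusted p under 0.05, 1 was higher and 2 lower, against 2.41% and 3.12% of all annotations. The transcription factor srebf2 had 63.0, 104.6 and 81.0 CPM in HL fish, against 203, 158.4 and 118 CPM in ML fish and 110, 123 and 115 CPM in LL fish (log2 fold change -0.73, SE 0.28, adjusted p = 0.855). Its relative srebf1, which drives fatty acid synthesis, had 10.2, 5.21 and 10.2 CPM in HL fish, against 1.52 to 4.07 CPM in the others (1.41, SE 0.35, adjusted p = 0.491). Every HL fish was below the 6 others for srebf2 and above them for srebf1. The low density lipoprotein receptor ldlr, which takes up cholesterol, overlapped, with 217, 407 and 151 CPM in HL fish, against 304 to 1022 CPM in the others. The 20 fatty acid synthesis annotations had a median log2 fold change of -0.03 and no call by edgeR's quasi-likelihood test, its exact test or DESeq2. At an unadjusted p under 0.05, 1 of them was higher and 1 lower, against 2.41% and 3.12% of all annotations.

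The called genes outside these pathways were few. The annotation sc:d173, whose product was not named, had 105.4, 69.0 and 82.6 CPM in HL fish, against 11.5, 6.39 and 7.85 CPM in ML fish and 14.8, 12.97 and 23.0 CPM in LL fish (log2 fold change 2.73, SE 0.34, adjusted p = 0.0137). It passed against both ML (3.32, adjusted p = 0.00479) and LL (2.33, adjusted p = 0.041). The annotation ptplad1, of a protein family that elongates very long chain fatty acids, had 78.0, 77.8 and 72.6 CPM in HL fish, against 15.7 to 28.2 CPM (1.73, SE 0.22, adjusted p = 0.0139). The annotation si:ch211-93g23.2 had 41.8, 54.2 and 42.3 CPM, against 10.8 to 19.8 CPM (1.63, SE 0.22, adjusted p = 0.0211). The groups did not overlap for any of the 3. The other transcript without annotation that passed had 8.77, 10.7 and 16.4 CPM in HL fish, against 2.14, 0.668 and 1.62 CPM in ML fish and 0.944, 2.02 and 1.54 CPM in LL fish (2.99, SE 0.37, adjusted p = 0.0192). It passed in 3 of the 9 fits with 1 fish left out, while the annotations sc:d173, ptplad1 and si:ch211-93g23.2 passed in 6, 4 and 2 of them.

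Of the oxidative phosphorylation list, 0 of 78 annotations passed by edgeR's quasi-likelihood test. At an unadjusted p under 0.05, 6 were lower and 0 higher, against 3.12% and 2.41% of all annotations. The exact test and DESeq2 called 1 lower each, against 0.0286% and 0.0859% of all annotations. That one was cox6b1, a subunit of cytochrome c oxidase, with 47.7, 34.3 and 44.6 CPM in HL fish, against 110, 94.9 and 118 CPM in ML fish and 113, 110 and 95.7 CPM in LL fish (log2 fold change -1.34, SE 0.22, adjusted p = 0.0707). All HL fish were below the 6 others, and the change was close in size against ML (-1.35) and LL (-1.33). With ML2 and ML3 left out, cox6b1 passed as lower by edgeR's main test (adjusted p = 0.0367). The list's median was -0.27, and -0.39 against ML and -0.09 against LL.

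Amino acid catabolism gave no call by any of the 3 tests. The list's median was -0.08 on the log2 scale, and 22 of 37 annotations were fitted below 0. At an unadjusted p under 0.05, 3 were higher, against 2.41% of all annotations, and 0 lower. They were hgd, hpda and fah, enzymes of tyrosine breakdown, a grouping seen after the values were known. For hgd, HL fish had 756 to 1020 CPM, against 397 to 697 CPM in the others. For hpda they had 1642 to 2154 CPM, against 555 to 1537 CPM. For fah they had 440 to 582 CPM, against 157 to 408 CPM. Glycolysis, gluconeogenesis and glycogen (25 annotations) had a median log2 fold change of -0.25, but 0.14 against LL and 0.17 without ML2 and ML3. None passed by any of the 3 tests. At an unadjusted p under 0.05, 4 were lower and 0 higher, against 3.12% and 2.41% of all annotations. All HL fish lay above the others in 3 and below in 0, against 1.90% and 1.44% of all annotations. Of the 4, the catalytic subunit g6pca.2 of glucose-6-phosphatase, which releases glucose from the liver, had 42.1, 104 and 35.2 CPM in HL fish, against 247, 356 and 211 CPM in ML fish and 152, 134 and 71.7 CPM in LL fish, so HL2 overlapped LL3.

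Among the 5 oestrogen-sensitive reproductive annotations, none passed by edgeR's quasi-likelihood test, by the exact test or by DESeq2, and none had an unadjusted p under 0.05. The transglutaminase tgm2l was at 0, 3.42 and 0 CPM in HL fish, against 16.2, 13.4 and 6.59 CPM in ML fish and 0.45, 0.341 and 4.88 CPM in LL fish. The egg envelope gene zp2.5 was at 10.03, 20.3 and 16.1 CPM in HL fish, against 26.5, 45.1 and 81.3 CPM in ML fish and 10.3, 19.1 and 16.0 CPM in LL fish. HL and LL fish overlapped for both, while the ML fish were the highest.

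**Figure D5:**
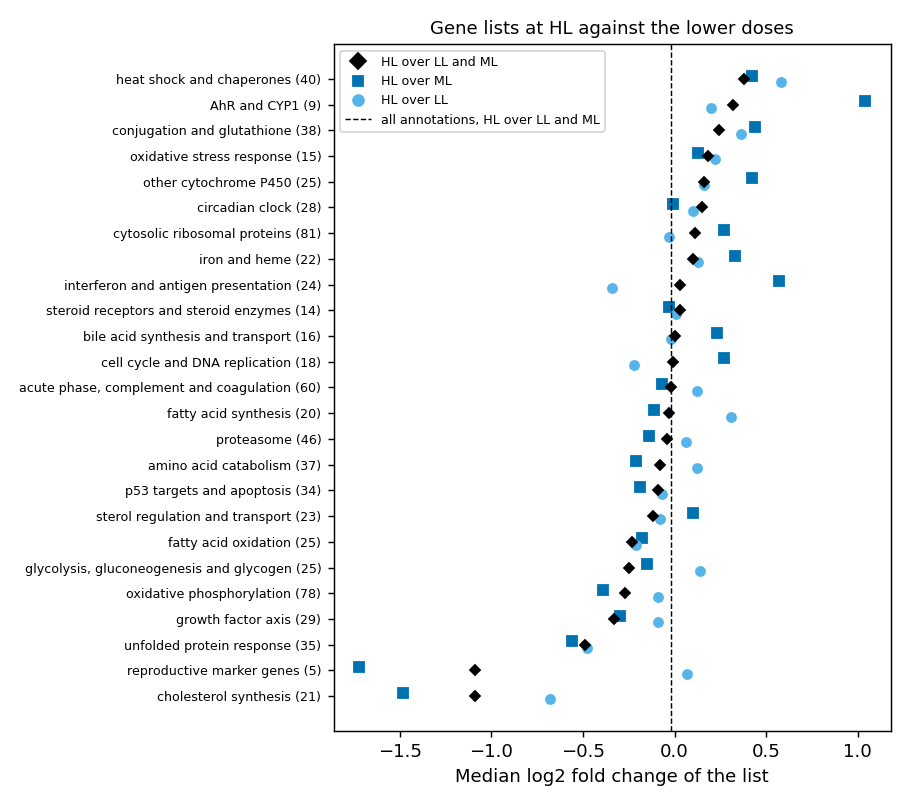
Median log2 fold change (horizontal axis) of 25 gene lists, with the number of annotations tested in parentheses: HL over LL and ML (diamonds), over ML (squares) and over LL (circles); the dashed line is the median of all annotations. The heat shock list has the highest pooled median (0.38), while cholesterol synthesis and the reproductive genes have the lowest (-1.09 each), and the reproductive genes lie at 0.07 against LL.

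Set against each lower dose on its own in a fit of the 3 groups, HL differed from ML in 6 transcripts (0.0115% of those tested), all higher, and from LL in 4 (0.0077%), all higher. The 4 were 3 of clusterin and 1 of hsc70-like, and they were also among the 6, beside sc:d173 and 1 of mgst3. ML differed from LL in 0 transcripts by edgeR's quasi-likelihood test, with 5597 (10.8%) at an unadjusted p under 0.05 and 742 called by DESeq2. Over annotations, HL differed from ML in 3 (0.0286%: clu, sc:d173 and hsc70-like) and from LL in 4 (0.0382%: the same 3 and hsp90aa1.2), all higher. These counts rested on single fish. For HL against ML the direction also depended on the test and on ML1. DESeq2 called 1117, of which 350 were higher and 767 lower in HL, and without ML1 edgeR called 2818, of which 1314 were higher and 1504 lower. For ML against LL the count without ML1 was 2803. For HL against ML it was 10 without HL2 (7 higher and 3 lower), 3 without ML2 and 2 without ML3. For HL against LL it was 12 without ML1, 14 without ML2 and 2 without HL3, all higher, and 0 without HL1, LL2 or LL3. Without LL1 it was 1, a transcript that was lower in HL and not among the 4.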

How the data were processed

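The authors sequenced liver RNA of single fish (TruSeq libraries), assembled transcripts de novo, aligned reads with Bowtie2 2.1.0, 1 position reported for each, and took counts from SAMtools 0.1.18. The deposited tables hold raw counts per transcript, 1 table for each dose with its own set of transcripts, with annotations by similarity to zebrafish, then human or mouse, then other fish proteins. Columns with the authors' own fold changes and p-values against controls were not used. Tables of the 3 linuron doses were joined on transcript. The quasi-likelihood test of edgeR 4.0.16 (R 4.3.3) with TMM factors was run on transcripts with at least 1 count in at least 3 of 9 fish, and on counts summed per annotation. P-values were adjusted over all features, with a threshold of 0.05. A fit of the 3 dose groups gave the contrasts with ML and LL, and an alternative contrast of HL with their mean. The SE is the log2 fold change over the square root of F. Alternatives were edgeR's exact test, DESeq2 1.42.0, other scalings and filters, a replicate block and each fish left out. The 3 tests of the pooled comparison were each run on simulated counts with 200 changed transcripts. These counts had no difference between LL and ML and no fish set apart, so they cannot show how the tests act with either. The fits of the 3 dose groups were not checked in this way.

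Gene lists were matched by annotation name and symbols in the text are the usual ones for those names. The text names annotated transcripts that passed with HL fish all above or all below the others, called members of the lists, cyp1a and tgm2l, and uncalled members with their values; ptplad1, si:ch211-93g23.2 and tbcb fall outside this rule and were chosen after their values were seen. The comparison, the lists and the named genes were chosen with earlier results of these data known. Total counts per fish are given in the report.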

Additional observations from a re-analysis of the deposited data

Results flagged for a closer look

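A sample far from the others was found among the 6 lower-dose fish for 14 of the 98 values tested, by the ratio of its gap to the whole range (Dixon's test at the 95% level). The test's rate of about 1 in 20 is that of independent, normally distributed values. The 98 values were not independent, since list sums contain named members, so no excess over that rate can be read from the count. ML1 was the high fish for 8: hmgcs1 (ratio 0.82, 298 CPM against 46.4 to 91.6 in the others), idi1 (0.647), fdps (0.78), sqle (0.869), cyp51 (0.92, 438 CPM against 113 to 139), ebp (0.747), dhcr7 (0.746, 511 CPM against 77.3 to 188) and the summed cholesterol synthesis list (0.834, 4255 CPM against 1204 to 1710). ML2 was low for cyp3a (0.627, 323 CPM against 707 to 935) and hgd (0.644), and high for manf (0.748, 339 CPM against 17.5 to 98.5). ML3 was high for hsp90aa1.2 (0.641, 8.87 CPM against 0.171 to 3.29) and the amino acid catabolism sum (0.656). LL2 was high for the leukocyte marker sum (0.629, 1052 CPM against 519 to 717).

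Signal was also present in transcripts listed for HL alone, which entered no comparison. The lowest of the 3 HL fish had 285 CPM of a cyp1a transcript and 27.2 CPM of an hsp90aa1.2 transcript, scaled without TMM factors.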

How the results depend on the processing

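Fold changes of 75 items (the 10 called transcripts and selected annotations, some not named above) gave 1423 values under alternatives. Of these, 1303 kept their side of the threshold, 64 no longer passed, 55 newly passed and 1 reversed. The reversed value was that of fkbp5, an HSP90 co-chaperone. Its log2 fold change was -2.42 and became 0.13 with ML2 and ML3 left out (1305 and 773 CPM in these fish). Only the 10 transcripts and 6 annotations called in the main fit could lose a call, so the 64 came from them. For the other items, keeping their side meant staying uncalled. The pooled count of 10 transcripts was 55 by the exact test, 95 by DESeq2, 39 without ML2 and ML3 and 5 with counts summed per assembly component (the last 2 chosen after seeing the data), and 4 to 17 with 1 fish left out. The count of 6 annotations was 35, 43 and 17 by the same first 3 alternatives and 2 to 8 with 1 fish left out. Against LL, the 4 transcripts became 48 by DESeq2, 22 without ML2 and ML3, and 0 to 14 with 1 fish left out. Against ML, the 6, all higher, became 1117 by DESeq2 (350 higher, 767 lower), 0 without ML2 and ML3 (leaving 1 ML fish, assumed to vary like the others), and 2 to 2818 with 1 fish left out (without ML1, 1314 higher and 1504 lower). ML against LL gave 742 by DESeq2 and 0 to 2803 with 1 fish left out. The cause was not tested.

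The replicate numbers did not pair the fish: deviations of same-numbered fish correlated at -0.182 to 0.158 over 29700 transcripts, and 1 of 9 pairs exceeded 0.1. Fish correlated best with their own number in 5 of 18 combinations. With the replicate block, 8 transcripts and 2 annotations passed in the pooled comparison, 2 transcripts against LL and 4 against ML.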
